A study of Mus musculus with 4 samples.

Results

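The genes described here form the amino acid arm of the integrated stress response. They are the transcription factor gene Atf4 with its stress-linked partners and targets, the enzymes that make serine, one-carbon units, asparagine, proline and cysteine, the amino acid transporters, and cytosolic tRNA synthetases. The 36 members were taken by gene symbol from the deposited count tables, where all 36 were found among 14082 listed genes. RNA came from ovalbumin-specific CD8 T cells that had been sorted from subcutaneous E.G7 tumours grown in mice of 6 to 10 weeks. The E.G7 line was made from the mouse T lymphoma EL4 by adding ovalbumin. The 2 libraries labelled WT came from Smad4-fl/fl mice and the 2 labelled KO from Cd8-cre Smad4-fl/fl mice, so both groups carry the floxed Smad4 allele and differ in the Cre transgene. A Cre under Cd8 control acts in cells of the CD8 lineage, while tumour cells and other host cells keep Smad4. Whether replicate libraries were made from different animals is not stated, so each p-value reflects only the variation among these 4 samples, part or all of which may be technical.

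In the integrated stress response, kinases that sense amino acid shortage, unfolded protein, double-stranded RNA or haem deficiency phosphorylate the initiation factor eIF2. General translation then slows while translation of the Atf4 mRNA increases, so ATF4 protein is set largely by translation and the level of Atf4 mRNA need not follow it. ATF4 binds composite elements shared with C/EBP proteins and induces genes for amino acid synthesis, amino acid import and tRNA charging. Activated CD8 T cells use the same enzymes and transporters, since rapid division needs serine, one-carbon units for nucleotides, glutamine and large neutral amino acids.

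Total counts ranged from 24366540 to 26218277 per library, and the members together took 0.548% to 0.550% of the counts in WT and 0.669% to 0.680% in KO. The targeted gene Smad4 came first, as a limited look at the labels, because whole-gene counts cannot resolve a deletion of single exons. It had 752 and 736 counts in the WT libraries and 779 and 1088 in the KO libraries, a log2 fold change of 0.19 that did not pass (edgeR quasi-likelihood, Benjamini-Hochberg adjusted p = 0.397). Without KO replicate 1 it passed as higher (log2 fold change 0.40, adjusted p = 0.00806), so KO below always means a library labelled KO. Defining T cell transcripts were present. Cd8a measured 125 and 121 FPKM (the authors' value per unit of gene length and library size) in WT and 63.8 and 65.8 in KO. Macrophage transcripts were present too, with 8516 to 9068 FPKM for the lysozyme gene Lyz2 and 753 to 814 FPKM for the complement gene C1qa. Of 9 CD8 T cell markers 6 were lower in KO and the other 3 did not pass. Their summed level went from 2945 and 3018 CPM (counts scaled to library size, with TMM factors) in WT to 2021 and 1996 in KO. Cd8a and Cd8b1 fell by more than most of the list, 1.90-fold and 1.94-fold (edgeR adjusted p = 1.23e-07 and 1.02e-07). Of 11 neutrophil markers 8 were higher, with sums of 704.5 and 723 CPM in WT and 2012 and 2014 in KO. Monocyte and macrophage markers summed to 20545 and 21339 CPM in WT and 21350 and 21918 in KO, with 2 of 12 higher and 1 lower. B cell markers summed to between 6.88 and 16.4 CPM and NK cell markers to between 0.802 and 1.40 CPM, with Ncr1 at 0 counts in KO replicate 1. Mitochondrially encoded genes took 10.2% to 10.4% of counts in WT and 6.57% to 6.99% in KO. CD4 T cell markers summed to 39.0 and 40.7 CPM in WT and 76.0 and 78.7 in KO, with 1 of 3 higher. That 1 was Cd4, with 26.9 and 32.2 CPM in WT and 63.1 and 67.7 in KO. Dendritic cell markers summed to 221 and 222 CPM in WT and 329 and 341 in KO. Siglech, with 67.1 and 64.9 CPM in WT and 168 and 174 in KO, made most of that step. Of the 7 markers, Siglech and Flt3 were higher, Cd209a was lower and 4 did not pass. Fibroblast and endothelial markers summed to 609 and 560 CPM in WT and 648 and 714 in KO, with 3 of 8 higher. The CD4 T cell, dendritic cell, fibroblast and endothelial, CD8 T cell, neutrophil and B cell sums and the mitochondrial share separated the groups. The CD4 T cell and dendritic cell sums did so largely through Cd4 and Siglech. The NK cell sums overlapped and the macrophage sums differed little. The part of these values in the results below was not tested. In bulk RNA, fewer cells of a type and less RNA per cell cannot be told apart.

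Most of the members were higher in the libraries labelled KO, by modest amounts. Of 35 members with enough counts to be tested, 20 rose, 3 fell and 12 did not pass. Across all 13358 tested genes 10.1% rose and 11.0% fell, against 57.1% and 8.57% of the members. Members were chosen with earlier results of these data known, so this contrast is not independent of the choice. Members are well expressed genes, for which small changes are easier to call. Among genes with a mean of at least 30 CPM, a bound chosen after the values were seen, 14.4% of 5674 rose and 16.7% fell, against 18 and 3 of the 31 members at that level. The median log2 fold change of the tested members was 0.28, compared with -0.0037 over all tested genes, and 20.0% of all tested genes lay above the members' median. Among the 23 members that passed, 5 changed by more than 1.5-fold and 0 by more than 2-fold. The sole member left untested was Cth, which encodes cystathionine gamma-lyase of cysteine synthesis and had 2 and 8 counts in WT and 5 and 14 in KO. Counts of the tested members ranged from 82 for Chac1 to 21903 for Slc3a2 in a library, so counting error is larger for Chac1 and Pycr1 than for most members. Without WT replicate 1 the count of higher members was 14, without WT replicate 2 it was 15, and without either KO replicate it was 21 or 22, and the 3 falls became 1 without either WT replicate.

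**Figure D1:**
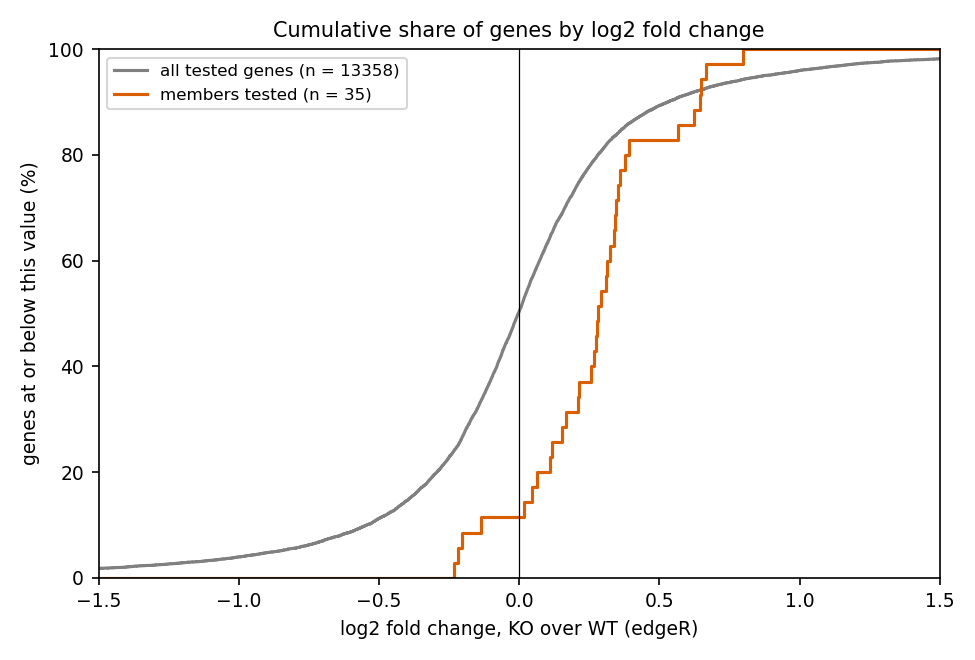
Cumulative share of genes (%, vertical axis) against the log2 fold change of KO over WT (horizontal axis) for all 13358 tested genes (grey) and the 35 tested members (orange). The member curve lies to the right of the grey curve over most of its range, crosses 50% near 0.28 and reaches its end at 0.80, while the grey curve crosses 50% near 0.

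**Figure D2:**
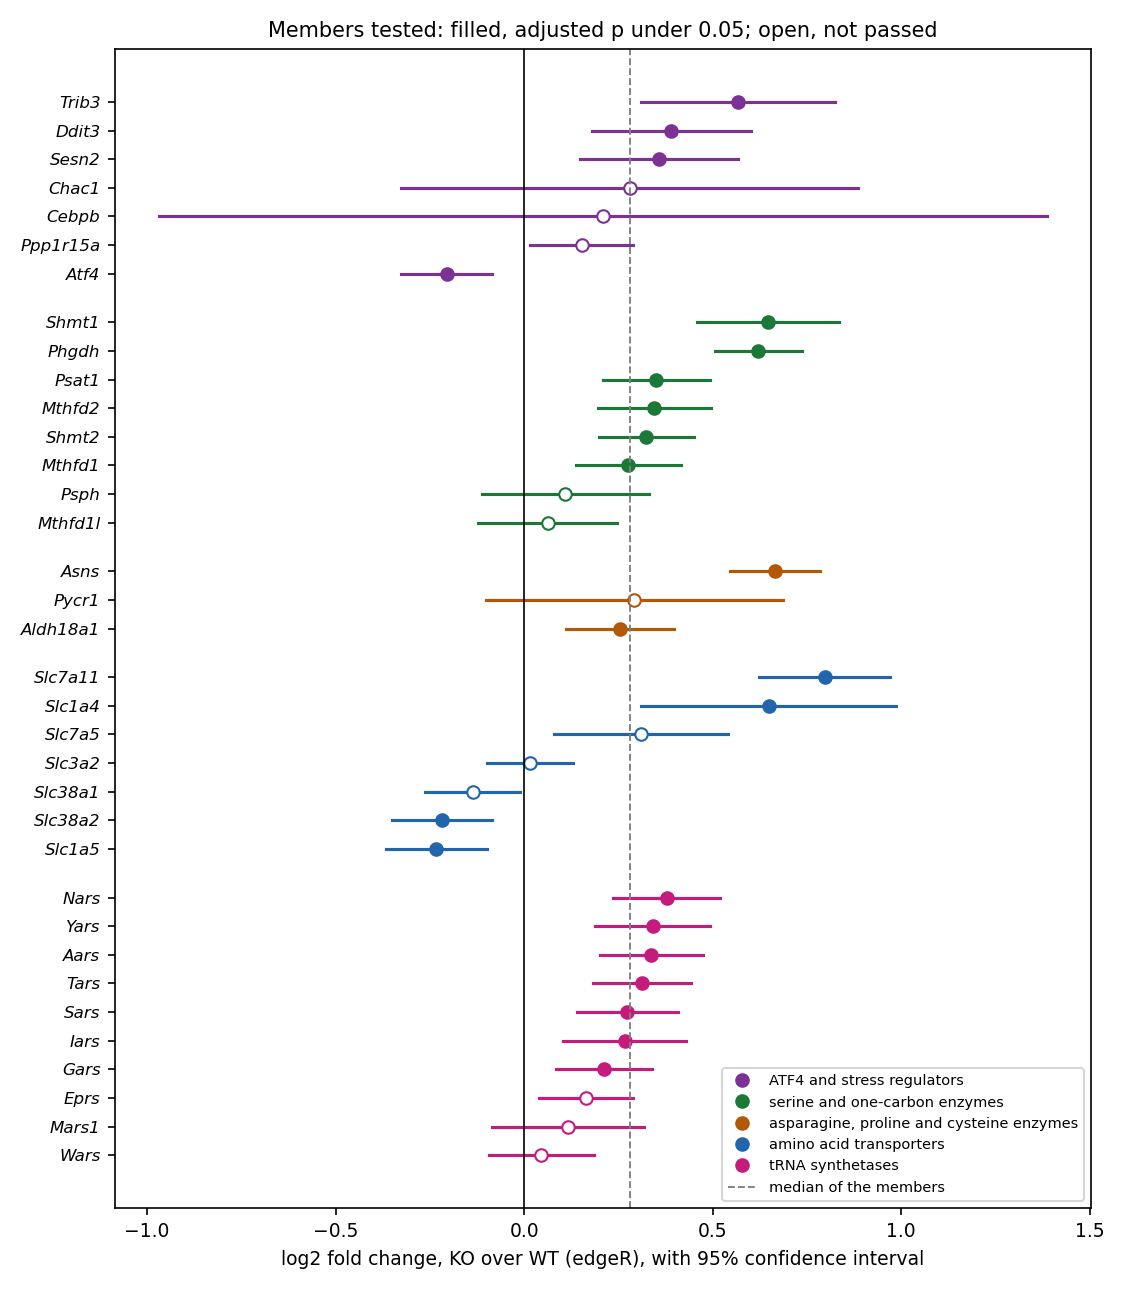
Log2 fold change of KO over WT (horizontal axis) for each of the 35 tested members, grouped by role, with edgeR estimates as points and 95% confidence intervals as bars. Filled points passed an adjusted p of 0.05, the dashed line is the members' median of 0.28, and the 3 filled points left of 0 are Atf4, Slc1a5 and Slc38a2.

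Promoters of the members were searched for the composite element that ATF4 and C/EBP proteins share, TGATGNAA on either strand, in windows from 250 bases before to 50 after each RefSeq transcription start (GRCm38.p6). Of 30 members with a window in that table, 11 held a match, or 36.7%. The share was 4.51% of all 27025 genes with such a window and 2.90% of the 10632 tested genes with one. The members were assembled around textbook ATF4 targets, several of which are known for this element, so the share describes the list and is not independent of it. A match stood in 9 of the 19 higher members with a window and in 2 of the other 11, Chac1 and Pycr1. With the stricter letters TGATGCAA the shares were 26.7% of members and 0.800% of tested genes. Sites of 8 higher members, from 4 of the 5 roles, and of Chac1 and Pycr1 are shown because they are a sequence feature these genes share. They are printed 5′ to 3′ on the gene's strand, with the match in capitals, so that a match on the opposite strand reads TTNCATCA.
Asns (chr6:7693214-7693243, minus strand): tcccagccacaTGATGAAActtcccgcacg
Slc7a11 (chr3:50443623-50443709, minus strand): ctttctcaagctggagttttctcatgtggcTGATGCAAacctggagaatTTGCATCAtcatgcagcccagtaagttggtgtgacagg
Trib3 (chr2:152344028-152344057, minus strand): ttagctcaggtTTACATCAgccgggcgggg
Slc1a4 (chr11:20332699-20332728, minus strand): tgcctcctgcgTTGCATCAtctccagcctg
Gars (chr6:55037960-55037989, plus strand): tggctgcgctaTTTCATCAtgcaccgggcg
Iars (chr13:49682126-49682155, plus strand): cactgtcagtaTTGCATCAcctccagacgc
Yars (chr4:129189895-129189924, plus strand): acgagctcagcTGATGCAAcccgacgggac
Tars (chr15:11399655-11399684, minus strand): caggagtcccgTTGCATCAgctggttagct
Chac1 (chr2:119351019-119351086, plus strand): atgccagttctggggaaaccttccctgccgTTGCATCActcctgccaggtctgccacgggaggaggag
Pycr1 (chr11:120643814-120643881, minus strand): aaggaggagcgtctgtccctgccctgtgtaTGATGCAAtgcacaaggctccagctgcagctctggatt

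**Figure D3:**
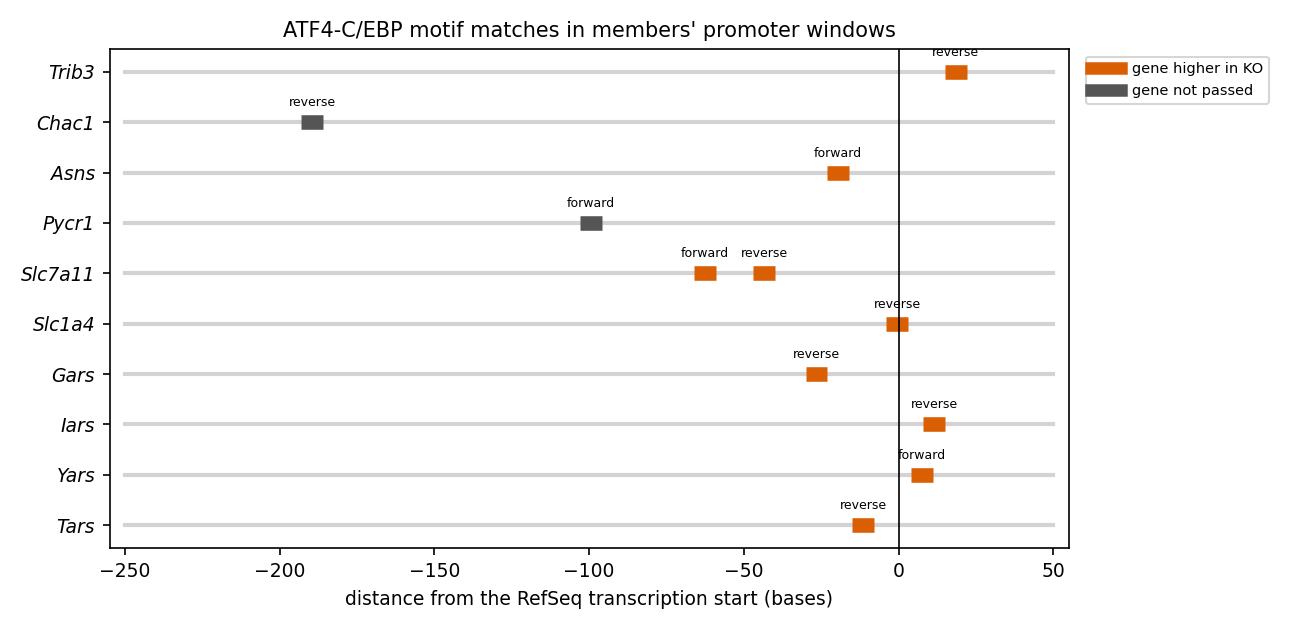
Position of each TGATGNAA match (bars) in the promoter windows of 10 of the 11 members that held one, as distance in bases from the RefSeq transcription start (horizontal axis), with the strand of the match written above. Orange marks genes higher in KO and grey the 2 that did not pass, and 1 higher member with a match is not drawn. The matches drawn lie between 193 bases before the start, in Chac1, and 15 after it, in Trib3.

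Slc7a11 was the sole member with a pair of matches close together, starting 66 and 47 bases before the start in opposite orientations. Matches in Gars, Asns, Tars and Slc1a4 began 30, 23, 15 and 4 bases before the start. Those of Yars, Iars and Trib3 began at bases 4, 8 and 15 after it. Absence of these letters from the windows of Phgdh, Shmt1 and other searched higher members says only that they are not in those 300 bases. Nars, a higher member, had no window and was not searched, nor were Cth, Slc7a5, Slc1a5, Slc38a1 and Wars. All 36 gene lengths implied by the deposited values equalled the GENCODE M21 exon length within 0.1%, so positions of genes below are from that annotation of mm10.

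Stress regulators split, with the targets Ddit3, Trib3 and Sesn2 higher and Atf4 mRNA slightly lower. Atf4, on chromosome 15 from 80255184 to 80257541, measured 292 and 281 CPM in WT and 245 and 252 CPM in KO. Both KO libraries lay below both WT libraries, and the log2 fold change of -0.21 (SE 0.0553) passed narrowly (edgeR adjusted p = 0.0188). That call was lost with library totals alone as the scaling, with the replicate block and without WT replicate 1, WT replicate 2 or KO replicate 1 (adjusted p = 0.139, 0.0589, 0.154, 0.0526 and 0.0621). Trib3, a pseudokinase that feeds back on ATF4 and whose promoter site is printed above, measured 20.7 and 22.7 CPM in WT against 33.7 and 30.6 in KO. It rose 1.48-fold (log2 fold change 0.57, SE 0.119, edgeR adjusted p = 0.00467). Ddit3, which encodes the stress transcription factor CHOP, measured 34.5 and 33.1 CPM in WT and 44.4 and 44.2 in KO, a 1.31-fold rise (edgeR adjusted p = 0.0123). Sesn2, an inhibitor of mTORC1 signalling that senses leucine, measured 36.7 and 40.9 CPM in WT and 48.7 and 50.8 in KO, a 1.28-fold rise (edgeR adjusted p = 0.0193). All 3 rises had KO libraries above both WT libraries, as did 29.7% of all tested genes. All 3 missed the threshold without WT replicate 1 (adjusted p = 0.0605, 0.0608 and 0.205 for Trib3, Ddit3 and Sesn2), and Ddit3 also without WT replicate 2 (adjusted p = 0.0980).

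The other 3 regulators did not pass. Ppp1r15a, which encodes the eIF2 phosphatase subunit GADD34, measured 470.4 and 485 CPM in WT and 564 and 498 in KO, with a 95% interval of the log2 fold change from 0.02 to 0.29 (edgeR adjusted p = 0.113). With library totals alone or without KO replicate 2 it passed (adjusted p = 0.0155 and 0.00946). Chac1, a glutathione-degrading enzyme strongly induced by ATF4 in many cells, had 82 and 103 counts in WT and 109 and 138 in KO, and its interval ran from -0.33 to 0.89. Cebpb, a C/EBP protein that can pair with ATF4 and is abundant in myeloid cells, measured 106 and 103 CPM in WT and 155 and 87.1 in KO. Its KO libraries lay on either side of WT, so the log2 fold change was 0.56 without KO replicate 2 (edgeR adjusted p = 1.33e-10) and -0.27 without KO replicate 1 (adjusted p = 0.0151), against 0.21 with all libraries (adjusted p = 0.765). Ddit3 shares 6.13% of its exon bases with another gene record of the same name on the same strand. It also shares 3.97% with the methionyl-tRNA synthetase gene on the opposite strand. Cebpb shares 20.7% of its exon bases with Tmem189 on the opposite strand. The strandedness of the counting is not given in the sources used here, so Cebpb is uncertain.

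**Figure D4:**
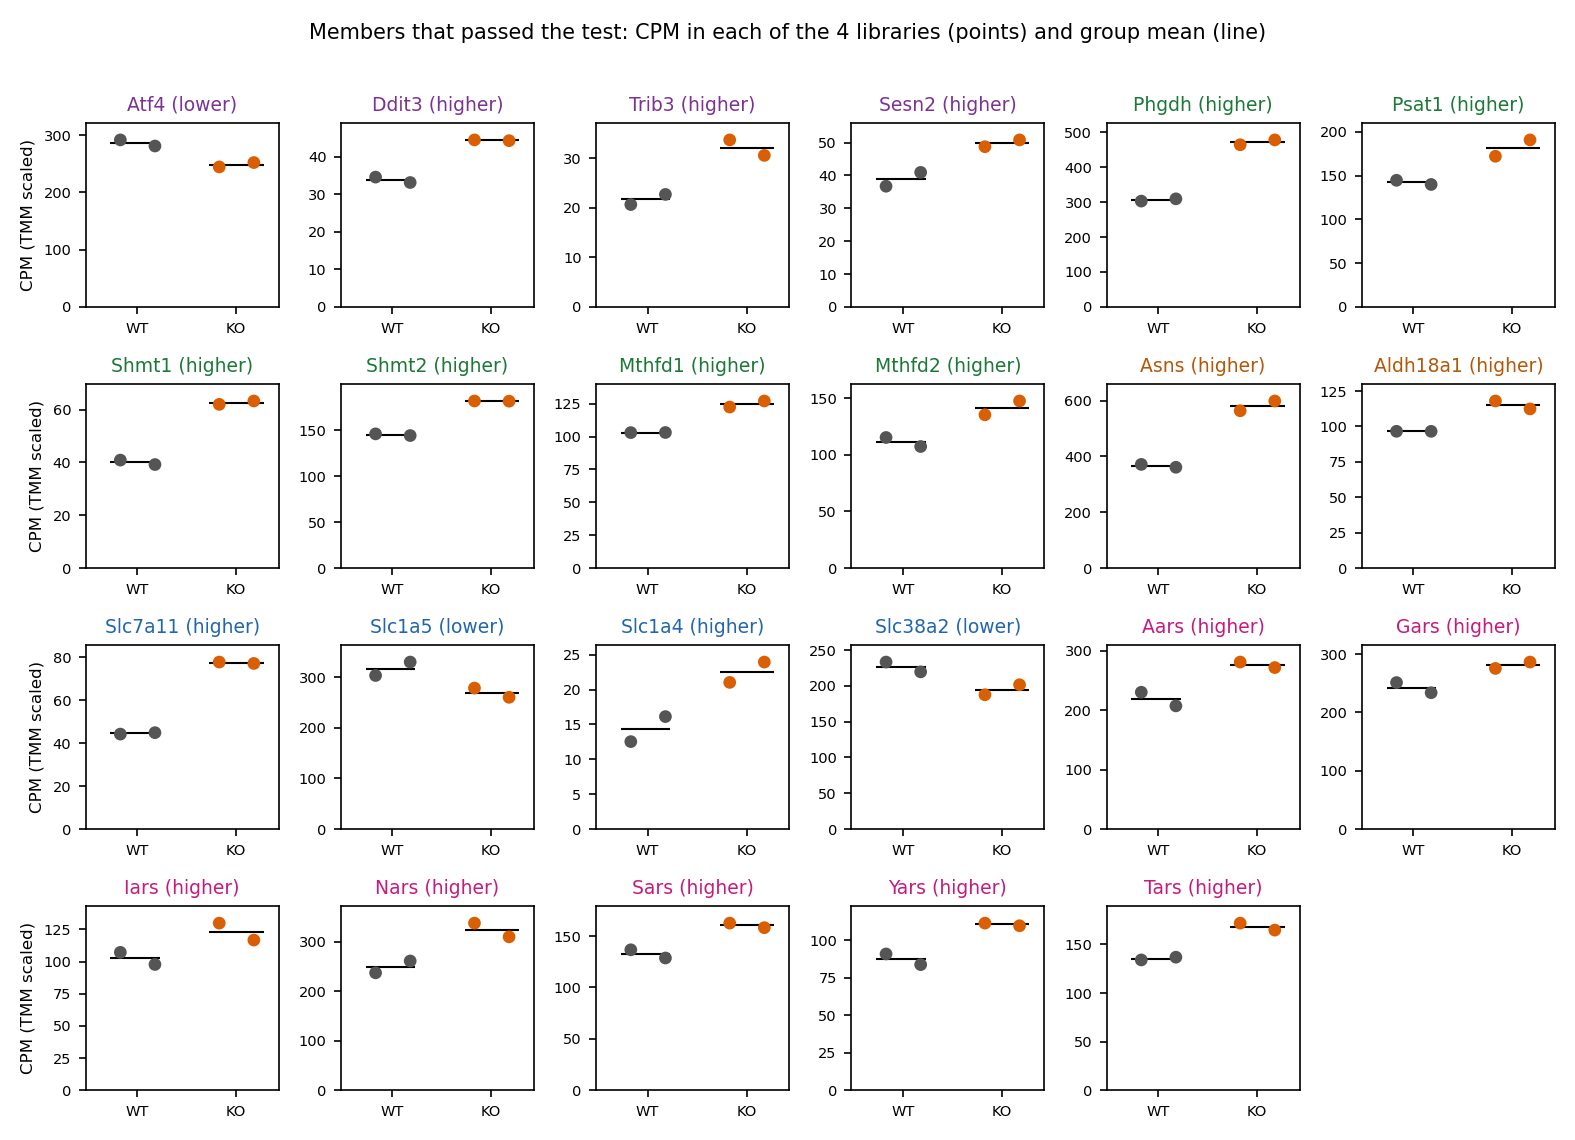
CPM (TMM scaled, vertical axes starting at 0) of the 23 members that passed the test, in the 2 WT (grey) and 2 KO (orange) libraries, with group means as lines and title colours by role. In all 23 panels, which were chosen by the test on these same values, the 2 groups do not overlap. Of all tested genes, 29.7% had both KO libraries above both WT libraries and 30.0% had both below. The widest step between group means relative to WT is that of Slc7a11, from 44.5 to 77.4 CPM.

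Serine synthesis and one-carbon enzymes were higher almost throughout, with 6 of 8 risen and the other 2 not passed. The group's log2 fold changes ran from 0.06 to 0.65 with a median of 0.34, and 0 members fell (edgeR; DESeq2 and limma-voom gave 0 too, as did an unadjusted p under 0.05). Phgdh, which commits glycolytic 3-phosphoglycerate to serine, measured 303 and 309 CPM in WT and 464 and 478 in KO. The groups stood well apart, and the 1.54-fold rise (log2 fold change 0.62, SE 0.0531) had an edgeR adjusted p of 3.99e-06. Phgdh lies on chromosome 3 from 98313170 to 98339990, but 7 unlisted gene models elsewhere match 84.2% to 84.6% of its transcript at 95% identity or more, so reads could have been split between copies and its value is uncertain. Psat1, the next enzyme of the pathway, measured 145 and 139.8 CPM in WT and 172 and 191 in KO, a 1.28-fold rise (edgeR adjusted p = 0.00226). Psph, the phosphatase of the last step, measured 35.3 and 38.0 CPM in WT and 37.9 and 41.1 in KO. These ranges overlapped, and the 95% interval of its log2 fold change was -0.11 to 0.33 (edgeR adjusted p = 0.507). The interval of Psph thus ends below the lower bound of Phgdh, 0.51, although the difference between both genes was not tested. Psph shares 10.4% of its exon bases with Cct6a on the opposite strand.

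Of the 2 serine hydroxymethyltransferases, which split serine into glycine and a folate-bound carbon, both rose. Shmt1, the cytosolic form on chromosome 11 from 60788104 to 60811718, measured 40.9 and 39.2 CPM in WT and 62.0 and 63.3 in KO, or 1.56-fold (log2 fold change 0.65, SE 0.0868, edgeR adjusted p = 0.000205). Shmt2, the mitochondrial form, measured 146 and 144 CPM in WT and 182 and 182 in KO, or 1.25-fold (edgeR adjusted p = 0.00159). The intervals of the log2 fold change were 0.46 to 0.83 for Shmt1 and 0.20 to 0.45 for Shmt2, and the difference between them was not tested. Among the folate enzymes downstream, cytosolic Mthfd1 measured 103 and 103 CPM in WT and 122 and 127 in KO (1.21-fold, edgeR adjusted p = 0.00852). Mitochondrial Mthfd2, an enzyme of dividing cells and a known ATF4 target, measured 115 and 107 CPM in WT and 135 and 148 in KO (1.27-fold, edgeR adjusted p = 0.00357). Mthfd1l, which releases formate from mitochondria, measured 67.5 and 64.9 CPM in WT and 64.7 and 73.6 in KO and did not pass, with an interval of -0.12 to 0.25. Mthfd1 missed the threshold without WT replicate 1 (edgeR adjusted p = 0.0639), and the other 5 risen enzymes passed under all 12 alternatives tried.

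Asns, which makes asparagine from aspartate and glutamine and is a classic ATF4 target, gave the smallest adjusted p of the members. It measured 371 and 361 CPM in WT and 563 and 598 in KO. The 1.59-fold rise (log2 fold change 0.67, SE 0.0549, edgeR adjusted p = 2.88e-06) passed under all 12 alternatives, with log2 fold changes from 0.62 to 0.75. Asns lies on chromosome 6 from 7675169 to 7693254, and its element, printed above, begins 23 bases before the RefSeq start. Aldh18a1, which starts proline synthesis from glutamate, measured 96.6 and 96.5 CPM in WT and 118 and 112 in KO, or 1.19-fold (edgeR adjusted p = 0.0158). That call was lost without WT replicate 1 or WT replicate 2 (adjusted p = 0.0975 and 0.0777). Pycr1, which completes proline synthesis in mitochondria, measured 8.48 and 9.16 CPM in WT and 11.2 and 10.4 in KO. Its KO libraries were above WT, but the interval of the log2 fold change, -0.10 to 0.69, included 0 (edgeR adjusted p = 0.294).

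Amino acid transporters moved in both directions, with 2 risen, 2 fallen and 3 not passed of 7. Slc7a11, the cystine-glutamate exchanger xCT, had the largest rise of the members. It measured 44.2 and 44.9 CPM in WT and 77.7 and 77.0 in KO, or 1.74-fold (log2 fold change 0.80, SE 0.0802, edgeR adjusted p = 1.65e-05), and passed under all 12 alternatives. The gene lies on chromosome 3 from 49892526 to 50443614 and carries the paired elements printed above. Slc1a4, a carrier of alanine, serine and cysteine, measured 12.5 and 16.1 CPM in WT and 21.0 and 23.9 in KO, or 1.57-fold (edgeR adjusted p = 0.0102), a call lost without WT replicate 1 (adjusted p = 0.129). Its close relative Slc1a5, the glutamine carrier ASCT2, went the other way, with 303 and 329.6 CPM in WT and 278 and 260.0 in KO, a log2 fold change of -0.23 (SE 0.0616, edgeR adjusted p = 0.0171). Slc38a2, the neutral amino acid carrier SNAT2, measured 233 and 219.6 CPM in WT and 188 and 202 in KO, a log2 fold change of -0.22 (edgeR adjusted p = 0.0229). Its relative Slc38a1 measured 249.6 and 240.0 CPM in WT and 216 and 229 in KO and did not pass (log2 fold change -0.14, edgeR adjusted p = 0.120). In these last 3 genes the KO libraries lay below WT, as did 30.0% of all tested genes.

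Both falls among the transporters were small and depended on the scaling. With library totals alone the log2 fold changes were -0.15 for Slc1a5 and -0.13 for Slc38a2 and neither passed (edgeR adjusted p = 0.101 and 0.139). Slc1a5 also missed the threshold without WT replicate 2 or KO replicate 2 (adjusted p = 0.188 and 0.0563), and Slc38a2 without WT replicate 1 or KO replicate 1 (adjusted p = 0.197 and 0.0938). Slc3a2 encodes the heavy chain CD98, with which both xCT and the leucine carrier LAT1 must pair. It measured 780.5 and 817 CPM in WT and 824 and 792 in KO, with a log2 fold change of 0.02 and an interval of -0.10 to 0.13 (edgeR adjusted p = 0.876). Slc7a5, which encodes LAT1, measured 61.4 and 58.9 CPM in WT and 83.9 and 65.2 in KO, with an interval of 0.08 to 0.54. It missed the threshold (edgeR adjusted p = 0.0560) and passed under 5 of 12 alternatives, among them the replicate block (adjusted p = 0.0142) and leaving out KO replicate 2 (adjusted p = 1.04e-05), and its log2 fold change was 0.48 without KO replicate 2 and 0.12 without KO replicate 1.

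Most of the cytosolic tRNA synthetases, which load amino acids onto their tRNAs, rose by small amounts. Of 10 members 7 rose and 0 fell (edgeR; DESeq2 and limma-voom gave 0 too, as did an unadjusted p under 0.05), and all 10 log2 fold changes were positive, from 0.05 to 0.38 with a median of 0.27. Nars, for asparagine, led with 237 and 261 CPM in WT and 337 and 309.7 in KO, or 1.30-fold (edgeR adjusted p = 0.00125). Yars, for tyrosine, measured 90.9 and 83.8 CPM in WT and 111 and 109.7 in KO, or 1.27-fold (edgeR adjusted p = 0.00416). Aars, for alanine, measured 230.2 and 207 CPM in WT and 281 and 272 in KO, or 1.26-fold (edgeR adjusted p = 0.00212). Exosc6, which is not among the listed genes, covers 14.3% of the exon bases of Aars on the same strand, so Aars is uncertain. Tars, for threonine, measured 134 and 137 CPM in WT and 172 and 165 in KO, or 1.24-fold (edgeR adjusted p = 0.00265). Nars, Yars, Aars and Tars passed under all 12 alternatives, and elements of Yars and Tars are printed above.

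Sars, Iars and Gars, for serine, isoleucine and glycine, rose by less. Sars measured 137 and 129 CPM in WT and 163 and 158 in KO (1.21-fold, edgeR adjusted p = 0.00729). Iars measured 107 and 97.7 CPM in WT and 129.8 and 117 in KO (1.20-fold, edgeR adjusted p = 0.0238), and an unlisted gene model elsewhere matches 49.9% of its transcript at 95% identity or more, so it is uncertain. Gars measured 251 and 234 CPM in WT and 275 and 286 in KO (1.16-fold, edgeR adjusted p = 0.0215). Each of these calls was lost without some library. Without WT replicate 2 the adjusted p was 0.0785 for Sars, 0.183 for Iars and 0.207 for Gars, and the count of higher synthetases was 4 instead of 7. Iars was also lost without KO replicate 1 (adjusted p = 0.0925) and Gars without KO replicate 2 (adjusted p = 0.0566).

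Wars, Eprs and Mars1 did not pass. Wars, for tryptophan, which is also induced by interferon gamma, measured 107 and 109.8 CPM in WT and 112 and 112 in KO. Its log2 fold change had an interval of -0.09 to 0.19 (edgeR adjusted p = 0.675). Eprs, a fusion enzyme for glutamate and proline, measured 190.3 and 197 CPM in WT and 212 and 222 in KO (edgeR adjusted p = 0.0597), and passed with library totals alone and without KO replicate 1 (adjusted p = 0.00684 and 0.0360). Mars1, for methionine, measured 89.7 and 88.1 CPM in WT and 85.6 and 107 in KO. It lay on both sides of WT, and passed without KO replicate 1 (log2 fold change 0.27, edgeR adjusted p = 0.0126) but not without KO replicate 2 (-0.06, adjusted p = 0.718).

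Levels of different genes were compared per length, from the deposited FPKM averaged over the 4 libraries. Slc3a2 was highest at 219.8 FPKM, above 98.4% of listed genes, followed by Asns at 167, Ppp1r15a at 166, Phgdh at 151 and Atf4 at 109 FPKM. Asns and Ppp1r15a differed by less than their spread over libraries, and the order of these genes differed between groups. In WT the means were 157 for Ppp1r15a, 129 for Asns, 119 for Phgdh and 117 FPKM for Atf4, and in KO 206 for Asns, 183 for Phgdh, 175 for Ppp1r15a and 102 FPKM for Atf4. The middle of the list was dense, with 8 members from Sars at 27.5 down to Ddit3 at 22.0 FPKM, a span smaller than the distance between Phgdh and Atf4. Lowest were Slc1a4 at 4.53, Slc7a11 at 4.23, Chac1 at 2.48, Pycr1 at 2.41 and Cth at 0.0962 FPKM. Slc7a11, the member with the largest rise, thus stood near the bottom in level, on a merged exon length of 13922 bases, whereas Asns and Phgdh were high in level and rose 1.59-fold and 1.54-fold. The members' median level was 22.5 and 22.4 FPKM in the WT libraries and 25.9 and 26.8 FPKM in the KO libraries.

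Outside the 36 members, 110 other genes of the same pathways were listed and tested, and 28 rose (25.45%) and 7 fell (6.36%), against 10.1% and 11.0% of all tested genes. The shares that rose were 36.4% of the other enzymes, 31.2% of the other ATF4-linked genes and 28.6% of the eIF2 list. They were 17.6% of the mitochondrial synthetases, 15.4% of the other cytosolic synthetases and 11.8% of the other transporters, nearer the background. Of all tested genes with a mean of at least 30 CPM, 14.4% rose and 16.7% fell. The pathway lists were not matched to that level. The shares that fell were 15.2% of the other enzymes and 11.8% of the mitochondrial synthetases. Of 14 genes for eIF2 kinases, eIF2, its phosphatase and its exchange factor eIF2B, 4 rose and 0 fell (edgeR; DESeq2 and limma-voom gave 0 too, and an unadjusted p under 0.05 gave 1). All 4 were eIF2B subunits, Eif2b3 (1.38-fold), Eif2b1 (1.27-fold), Eif2b5 (1.23-fold) and Eif2b4 (1.20-fold). Their edgeR adjusted p-values ran from 0.00442 for Eif2b3 to 0.0282 for Eif2b4, and all 4 calls were lost without WT replicate 1. Of 16 other ATF4-linked factors and targets 5 rose and 0 fell (edgeR; DESeq2 and limma-voom gave 0 too, and an unadjusted p under 0.05 gave 1). Stc2, a secreted glycoprotein, rose 1.94-fold from 7.05 ± 0.954 to 13.7 ± 0.781 CPM (SD, n = 2 each), and Ddit4, an inhibitor of mTORC1, 1.54-fold from 30.8 ± 0.726 to 47.4 ± 2.41 CPM. Eif4ebp1, a repressor of translation initiation, rose 1.33-fold and Herpud1, of endoplasmic reticulum protein disposal, 1.32-fold. These 4 had edgeR adjusted p-values from 0.000522 for Herpud1 to 0.00279 for Stc2 and passed under all 12 alternatives. The fifth was Gdf15, a stress cytokine, named outside the naming rule (1.23-fold, edgeR adjusted p = 0.0474). Gdf15 was not called under 7 of the 12 alternatives, which were the replicate block, DESeq2, no filter on low counts and each of the 4 fits without 1 library.

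Synthetases beyond the members rose in smaller shares than the members did. Members and gene lists were chosen with earlier results of these data known, so this contrast may reflect the choice. Over all tested genes the shares were 10.1% higher and 11.0% lower. Of 13 other cytosolic synthetases and scaffold proteins of the synthetase complex, 2 rose and 0 fell (edgeR; DESeq2 and limma-voom gave 0 too, as did an unadjusted p under 0.05). They were Cars (1.22-fold, edgeR adjusted p = 0.0215) and Kars (1.13-fold, adjusted p = 0.0398), for cysteine and lysine. Kars was lost with the replicate block (adjusted p = 0.129) and without WT replicate 1, WT replicate 2 or KO replicate 2, Cars without WT replicate 1 or KO replicate 1, and the count was 7 with library totals alone and 0 without WT replicate 1. Of 17 mitochondrial synthetases 3 rose and 2 fell, with 5 higher under the replicate block and under library totals alone and 0 higher without WT replicate 1. Lars2, for leucine, was 1.34-fold lower (868 ± 19.6 to 646 ± 58.1 CPM, edgeR adjusted p = 0.000408). It averaged 65.9 FPKM, against 12.7 for Rars2, the next highest of the mitochondrial synthetases. Whether all reads given to Lars2 came from its own mRNA was not tested. Fars2, for phenylalanine, was 1.37-fold lower (edgeR adjusted p = 0.00526). Tars2 and Yars2 were 1.25-fold and 1.34-fold higher (edgeR adjusted p = 0.0102 and 0.0204). Lars2 passed under all 12 alternatives, while Fars2 missed the threshold without WT replicate 2 (adjusted p = 0.0513).

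Other enzymes and carriers of amino acids gave the steepest single change of the pathway lists. Of 33 other amino acid and folate enzymes 12 rose and 5 fell, with 4 and 3 without WT replicate 1 and 7 and 4 without WT replicate 2. Gldc, the decarboxylase of the mitochondrial glycine cleavage system, fell 3.68-fold, from 75.9 and 72.8 CPM in the WT libraries to 21.7 and 18.7 in the KO libraries (log2 fold change -1.88, SE 0.102, edgeR adjusted p = 6.26e-08). Gldc takes apart the glycine that Shmt1 and Shmt2 make, and it moved opposite to both. Bcat1, which transaminates branched-chain amino acids in the cytosol, rose 1.64-fold from 79.1 and 72.9 to 125 and 125 CPM (edgeR adjusted p = 1.29e-05). Ass1, which joins citrulline and aspartate in arginine synthesis, rose 1.44-fold (edgeR adjusted p = 0.000103), and Odc1, the first enzyme of polyamine synthesis, was 1.29-fold lower (adjusted p = 0.000818). Other falls, named outside the naming rule, were Glud1, of glutamate breakdown (1.19-fold lower, edgeR adjusted p = 0.00633), and the arginase gene Arg1 (1.14-fold lower, adjusted p = 0.0219). Gldc, Bcat1, Ass1 and Odc1 passed under all 12 alternatives, although Ass1 and Odc1 have unlisted copies matching 73.1% and 62.6% of their transcripts and are uncertain. Of 17 other transporters 2 rose and 0 fell (edgeR; DESeq2 and limma-voom gave 0 too, and an unadjusted p under 0.05 gave 4). They were Slc7a7, a light chain that also pairs with CD98 (1.37-fold, edgeR adjusted p = 0.00178), and the glycine carrier Slc6a9 (1.93-fold, from 7.19 ± 0.881 to 13.9 ± 1.73 CPM, adjusted p = 0.00331). Without KO replicate 2, 3 transporters, 1 gene of the eIF2 list and 1 of the other ATF4-linked genes were called lower, and without KO replicate 1, 1 transporter was. Slc6a9 shares 27.8% of its exon bases with Ccdc24 on the opposite strand and is uncertain.

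**Figure D5:**
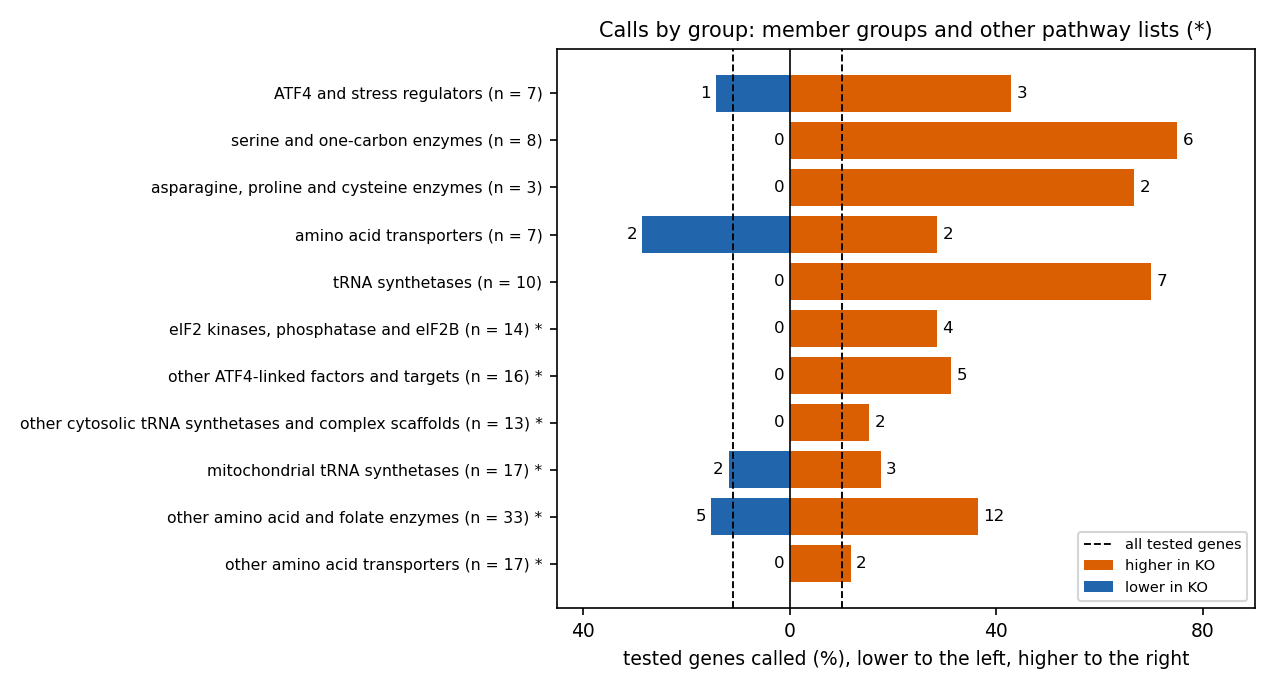
Share of tested genes called (%, horizontal axis) higher (orange, right) or lower (blue, left) in KO for the 5 member groups and the 6 other pathway lists (starred), with the number of genes at each bar end. Dashed lines give 10.1% and 11.0%, the shares over all tested genes; serine and one-carbon enzymes (6 of 8) and the synthetases (7 of 10) reach farthest right, and the transporters alone among the member groups have 2 falls.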

How the data were processed

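RNA-seq libraries of sorted tumour CD8 T cells were compared, 2 labelled WT and 2 labelled KO. Each deposited table gave whole-number counts per gene and FPKM values, per the file headers. Per the submitters' processing notes, which assign no roles, the tools were featureCounts, Bowtie2, DESeq2, edgeR and Trim Galore 0.4.4, and the build was mm10. For annotation, strandedness and counting settings the sources used here give nothing. The authors' FPKM served only for levels per length.

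One model over all genes was fitted to the counts (edgeR 4.0.16, R 4.3.3) with TMM scaling, robust glmQLFit and glmQLFTest. The filter filterByExpr (minimum count 10, minimum total 15) removed 724 genes. Calls used a Benjamini-Hochberg adjusted p under 0.05 over all tested genes. Each SE was derived from its log2 fold change and F value. The step was tested on simulated data. Counts of replicates differed beyond sampling noise (chi-square per degree of freedom 7.39 and 9.72), so none were merged. Copies were sought with BLAST 2.17.0, exon overlaps in GENCODE M21, and promoters came from RefSeq. Alternatives were DESeq2 1.42.0, limma 3.58.1 (voom), other scalings and filters, the replicate block and leaving out each library. Leaving out mitochondrial genes was added after the data were seen. Members and gene lists were chosen with earlier results of these data known. All members are named, and of each other list up to 4 called genes with at least 5 CPM, by p. Some genes and a sequence counted in these totals are not reported here.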

Additional observations from a re-analysis of the deposited data

How the results depend on the processing

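With 2 libraries a group, each call rests on the pooled spread, and leaving out a library assumes that the lone one varies like the others. Of the 20 higher members 11 passed under all 12 alternatives (Phgdh, Psat1, Shmt1, Shmt2, Mthfd2, Asns, Slc7a11, Aars, Nars, Yars and Tars), while 0 of the 3 lower members did. No called member changed sign. Library totals alone shifted the median of all genes to 0.08, gave 2105 higher genes instead of 1354 (67.5% of calls instead of 47.9%), moved the members' median to 0.37 and left 0 members lower. Over the fits that leave out 1 library, higher genes ranged from 714 to 1605, lower genes from 831 to 1787, members higher from 14 to 22 and members lower from 1 to 2, with the lowest values without WT replicate 1. Of members not called with all libraries, some turned negative when 1 library was left out, and their log2 fold changes over those fits ranged from -0.27 to 0.56 for Cebpb, from -0.035 to 0.15 for Mthfd1l, from -0.020 to 0.053 for Slc3a2 and from -0.055 to 0.27 for Mars1, as did Smad4, from -0.063 to 0.40. The cause was not tested. Deviations from group means hardly correlated across genes between WT replicate 1 and KO replicate 1 (-0.03). With 2 libraries a group this is 1 value, so it cannot show whether some genes vary by replicate number. The replicate block gave 21 higher and 2 lower members and 1393 higher and 1522 lower genes. In windows without the 50 bases after the start, 23.3% of members and 2.53% of tested genes held the promoter element.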
